A study of Mus musculus with 6 samples.

Results

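The genes described here are 10 ligands and receptors of the platelet-derived growth factor (PDGF), hepatocyte growth factor (HGF) and fibroblast growth factor (FGF) systems, chosen by name from the 18089 genes measured by RNA-seq in ischemic mouse muscle. They are the PDGF ligands Pdgfa, Pdgfb, Pdgfc and Pdgfd, the PDGF receptors Pdgfra and Pdgfrb, Hgf with its receptor Met, and Fgf1 with Fgf2. The study asked which genes differ in ischemic muscle when GPR174, a G protein-coupled receptor for lysophosphatidylserine, is absent. RNA was taken from the gastrocnemius of 3 GPR174-KO mice (Gpr174-/Y) and 3 wild-type (WT) littermate controls 7 days after hindlimb ischemia (HLI). In HLI the femoral artery is ligated and a segment removed. All 6 mice were male, of the C57BL/6 strain and 8 to 10 weeks old. The knockout was not restricted to a cell type. Libraries were made from whole muscle. No uninjured muscle is among them, so the values compare 2 genotypes after the same injury.

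PDGFs are secreted as homodimers or heterodimers and bind receptor tyrosine kinases on mesenchymal cells. PDGF-AA and PDGF-CC act mainly through the alpha receptor, which in muscle marks fibro-adipogenic progenitors. PDGF-BB and PDGF-DD act mainly through the beta receptor of pericytes and smooth muscle cells. Endothelial PDGF-BB recruits pericytes to new vessels. HGF is stored in the matrix as an inactive precursor and activated by proteases. It brings quiescent satellite cells, the stem cells of muscle, into the cell cycle through the Met receptor. FGF1 and FGF2 lack a classical secretion signal, bind heparan sulfate, and act on FGF receptors of satellite cells, fibroblasts and endothelium.

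Promoter sequences are shown for 4 members: Pdgfc and Hgf, which had the largest increases, and Met and Fgf2, with small differences. RefSeq promoter windows (GRCm38.p6, 250 bases before to 50 after a start site) were found for 7 of the 10 members. The 250 bases before the start are printed 5′ to 3′ on the strand of the gene. Capitals mark matches on either strand to 4 motifs: EGR (GCGNGGGCG), GC box (GGGCGG), AP-1 (TGANTCA) and TATA box (TATAAA). The Pdgfc window is chr3:81036166-81036415, the Hgf window is chr5:16553245-16553494, the Met window is chr6:17463707-17463956 and the Fgf2 window is chr3:37348403-37348652, all on the plus strand.
Pdgfc: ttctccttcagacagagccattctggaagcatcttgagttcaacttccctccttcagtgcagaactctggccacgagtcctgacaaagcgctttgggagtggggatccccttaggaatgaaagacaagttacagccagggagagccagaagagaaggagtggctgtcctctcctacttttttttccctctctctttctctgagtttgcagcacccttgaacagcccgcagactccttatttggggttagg
Hgf: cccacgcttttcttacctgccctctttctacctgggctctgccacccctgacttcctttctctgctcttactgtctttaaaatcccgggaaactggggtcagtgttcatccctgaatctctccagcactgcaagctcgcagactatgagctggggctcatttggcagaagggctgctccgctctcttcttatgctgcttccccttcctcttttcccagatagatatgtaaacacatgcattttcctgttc
Met: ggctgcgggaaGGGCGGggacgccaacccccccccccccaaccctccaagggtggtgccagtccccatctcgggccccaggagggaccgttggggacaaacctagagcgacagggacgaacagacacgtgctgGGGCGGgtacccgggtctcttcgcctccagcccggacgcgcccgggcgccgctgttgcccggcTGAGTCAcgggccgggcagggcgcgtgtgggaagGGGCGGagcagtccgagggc
Fgf2: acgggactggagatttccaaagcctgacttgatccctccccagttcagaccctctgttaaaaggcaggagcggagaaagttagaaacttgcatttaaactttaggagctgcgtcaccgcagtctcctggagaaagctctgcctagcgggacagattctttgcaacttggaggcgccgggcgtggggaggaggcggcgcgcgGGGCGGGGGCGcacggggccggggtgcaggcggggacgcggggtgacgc

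The Pdgfc window and both windows of Hgf held none of the 4 motifs. Met had 3 GC boxes, at -239, -117 and -20 from the start site, and an AP-1 match at -54. Fgf2 had an EGR match at -47 that overlaps a GC box at -49. Of the windows not printed, both Pdgfa windows held GC boxes, the Pdgfd window held a TATA box match at -160, and the Pdgfra window held none. Of 32851 mouse promoter windows of the same length, 5.55% had an EGR match, 35.7% a GC box, 7.81% an AP-1 match and 13.6% a TATA box match. The windows of Pdgfc (55.0% G and C) and Hgf (51.3%) lay near the median of all windows (52.7%), whereas Fgf2 (62.7%) and Met (75.7%) were richer in G and C. Pdgfra (51.0%) and Pdgfd (56.7%), which also differed little between the groups, lay near that median too. The 2 Pdgfa windows had 67.0% and 73.3%. These matches describe the letters of the windows, and no binding was measured.

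Each library held between 18417107 and 19394505 estimated reads (expected counts). The smallest number taken as detectable, 3 counts, equals 0.155 to 0.163 CPM, that is, counts scaled to a common library total. These 2 values are without the TMM factors described below, which were 0.873 to 0.952 in WT and 1.08 to 1.12 in GPR174-KO libraries. Gpr174 itself had 8, 2 and 5 counts in the WT libraries and 1, 0 and 0 in the GPR174-KO libraries. The summed level of 16 mature muscle fibre markers was 142629 to 205180 CPM in WT and 64518 to 71812 CPM in GPR174-KO muscles. A score of these markers, in log2 units around the mean of all 6 libraries, was 1.00, 0.82 and 0.43 in WT replicates 1, 2 and 3. It was -0.69 to -0.82 in the knockouts, so WT replicate 3 stood closest to them. Replicate 2 had a value between those of replicates 1 and 3 for 77.1% of 9972 genes of at least 10 CPM in WT and 68.2% in GPR174-KO muscles. The same held for 8 of the 10 members in WT and 9 in GPR174-KO muscles. If the order of the 3 libraries meant nothing, each would be the middle one equally often. The tests below take the libraries of a group as independent, and why replicate 2 lay between the others was not tested. The SEs and p-values are to be read with that limit. CPM are scaled by the TMM method, which allows for the share of reads that a few abundant genes take. Tests are edgeR's quasi-likelihood test, adjusted by the Benjamini-Hochberg method over the 14395 genes that passed a filter on low counts.

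All 10 members passed the filter on low counts. The knockout muscles held more Pdgfc and Hgf mRNA and less Fgf1 mRNA, each by more than 2-fold. The other members differed by 1.32-fold or less. With an edgeR adjusted p under 0.05, 6 members were higher in GPR174-KO muscles (Pdgfa, Pdgfc, Pdgfd, Pdgfrb, Hgf, Met) and 2 were lower (Fgf1, and Pdgfra, which was not lower under total-count scaling). Pdgfb and Fgf2 did not pass. These 8 of 10 stand beside a background of 54.6% of all tested genes past that threshold, 27% higher and 27.6% lower. When a log2 fold change of more than 1 in either direction was also asked for, 3 members remained, 2 higher and 1 lower, beside 8.28% of all tested genes (3.45% higher, 4.84% lower). The 2 groups did not overlap in CPM for 9 members, 6 higher and 3 lower, beside 65.6% of all tested genes (33.1% higher, 32.4% lower). The median log2 fold change was 0.23 over the members and 0.00 over all tested genes. In whole muscle, a change in the number of cells of a type and a change in mRNA per cell cannot be told apart. No member had an edgeR adjusted p under 0.05 when the fibre score was added as a covariate or when replicate 2 of both groups was left out, where 3.49% and 0% of all tested genes were called. The fibre score did not overlap between the genotypes, so a fit with it cannot tell score and genotype apart. The values given below with this covariate carry that limit.

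**Figure D1:**
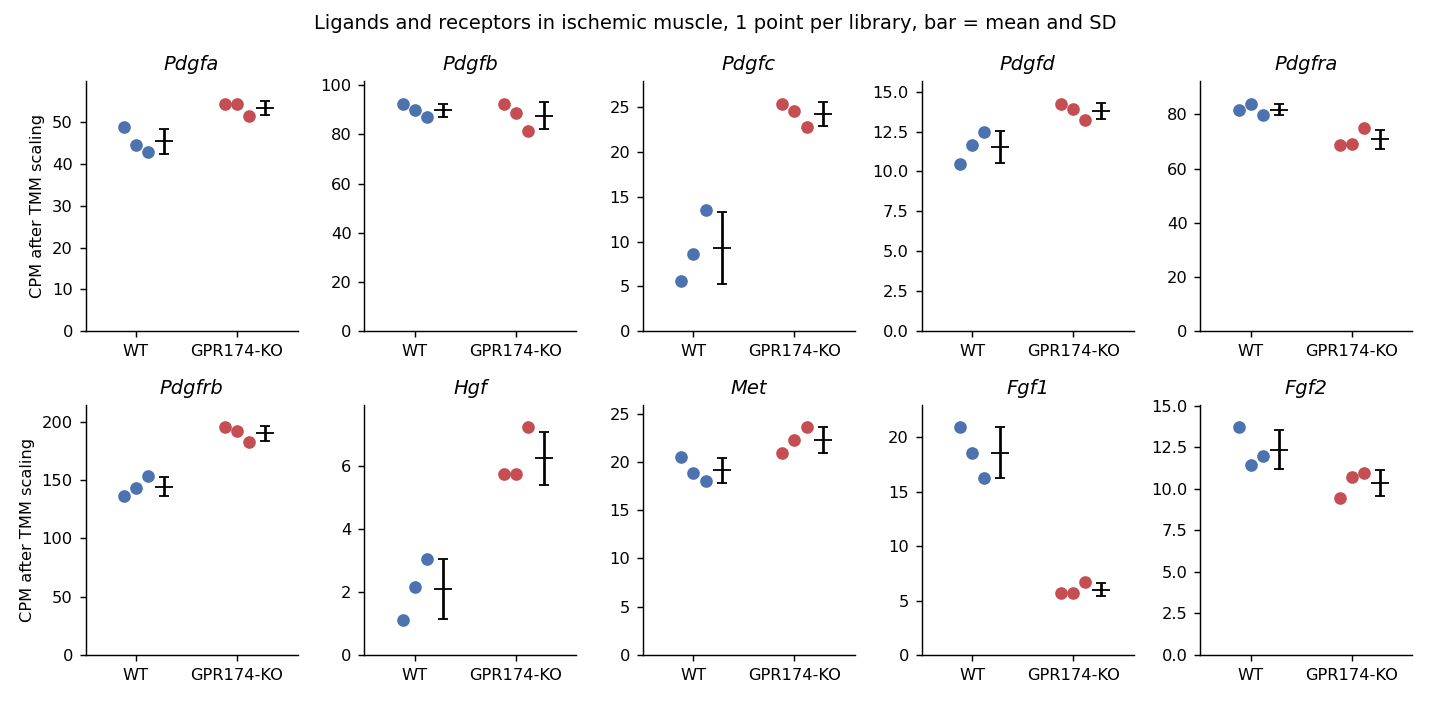
CPM after TMM scaling (vertical axes, linear, from 0) of the 10 members in the 3 WT libraries (blue) and the 3 GPR174-KO libraries (red), 1 point per library, with the mean and SD in black. Pdgfc, Hgf and Fgf1 separate most widely, Pdgfb overlaps between the groups, and the WT points of Pdgfc run from 5.60 to 13.5 CPM.

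Pdgfc (Entrez gene 54635), which encodes a PDGF that must be cut by a protease before it binds the alpha receptor, was the PDGF ligand that differed most. In WT replicates 1, 2 and 3 its level was 5.60, 8.63 and 13.5 CPM, from 90, 145 and 241 counts. The GPR174-KO replicates had 25.4, 24.6 and 22.8 CPM, from 531, 522 and 490 counts. Every knockout library was above every WT library. The WT libraries differed 2.42-fold among themselves and the knockouts 1.11-fold, and WT replicate 3, with the lowest fibre score of its group, was the highest in WT. The mean rose from 9.26 ± 4.01 to 24.3 ± 1.32 CPM (SD, n = 3 each), a log2 fold change of 1.38 (SE 0.26, edgeR adjusted p = 0.00514) or 2.60-fold. This log2 fold change ranked 204th from the top among all tested genes. The log2 fold change stayed between 1.13 and 1.77 when any 1 library was left out, with an edgeR adjusted p of at most 0.0271. With the fibre score as a covariate it was -1.16 (SE 0.62, edgeR adjusted p = 0.369).

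Pdgfa (Entrez gene 18590), which encodes the A chain that binds the alpha receptor alone, differed by less. WT libraries had 48.8, 44.5 and 42.9 CPM and GPR174-KO libraries 54.4, 54.3 and 51.4 CPM, so the lowest knockout value was above the highest WT value. Its log2 fold change was 0.23 (SE 0.06, edgeR adjusted p = 0.0177). The edgeR adjusted p was over 0.05 without WT replicate 2 (0.0708), without GPR174-KO replicate 1 (0.0598) or without GPR174-KO replicate 2 (0.073).

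Pdgfd (Entrez gene 71785), whose product binds the beta receptor and like PDGF-CC needs cleavage, had 10.5, 11.7 and 12.5 CPM in WT and 14.2, 13.9 and 13.2 CPM in GPR174-KO libraries. The groups did not overlap, but the gap between the highest WT and the lowest knockout library was smaller than the spread within WT. The log2 fold change was 0.26 (SE 0.08, edgeR adjusted p = 0.0364). It passed the threshold in 1 of the 6 fits that left out 1 library, the fit without WT replicate 3. With the replicate number as a block, the edgeR adjusted p was 0.0861.

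Pdgfb (Entrez gene 18591), the B chain made by endothelial cells, platelets and macrophages, had 92.4, 90.1 and 87.2 CPM in WT and 92.5, 88.9 and 81.5 CPM in GPR174-KO libraries. The groups overlapped, and the highest value of each was almost the same. Its log2 fold change was -0.04 (SE 0.06, edgeR adjusted p = 0.639) under TMM scaling and 0.24 (SE 0.05, edgeR adjusted p = 0.00765) under scaling by total counts. Total-count scaling moved the median of all tested genes to 0.28, and Pdgfb was below that median under both scalings.

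Of the receptors, Pdgfrb (Entrez gene 18596), the beta receptor of pericytes and smooth muscle, had 136, 143 and 153 CPM in WT and 195, 192 and 183 CPM in GPR174-KO libraries. All 3 knockout values were above all 3 WT values. The mean rose from 144 ± 8.43 to 190 ± 6.34 CPM (SD, n = 3 each), a log2 fold change of 0.40 (SE 0.06, edgeR adjusted p = 0.00274) or 1.32-fold. The edgeR adjusted p was at most 0.0186 whichever single library was left out. With the fibre score as a covariate, the log2 fold change was 0.05 (SE 0.19, edgeR adjusted p = 0.916).

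Pdgfra (Entrez gene 18595), the alpha receptor, moved the other way on this scale. It had 81.5, 83.9 and 80.0 CPM in WT and 68.6, 69.2 and 74.9 CPM in GPR174-KO libraries, with no overlap. Its log2 fold change was -0.21 (SE 0.05, edgeR adjusted p = 0.0165) under TMM scaling but 0.07 (SE 0.07, edgeR adjusted p = 0.387) under total counts, which is below the median of all genes under that scaling. Its call was lost without WT replicate 2 (edgeR adjusted p = 0.0929), without GPR174-KO replicate 1 (0.0619) or without GPR174-KO replicate 2 (0.0825).

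Hgf (Entrez gene 15234) had the lowest level of the 10 in WT muscle and the largest rise. The WT libraries had 1.12, 2.14 and 3.03 CPM, from 18, 36 and 54 counts. The GPR174-KO libraries had 5.73, 5.74 and 7.21 CPM, from 120, 122 and 155 counts. Counting error alone was 23.6% of the value in WT replicate 1 and at most 9.1% in a knockout library. Even so, the lowest knockout library was above the highest WT library. The mean rose from 2.10 ± 0.96 to 6.23 ± 0.85 CPM (SD, n = 3 each), a log2 fold change of 1.55 (SE 0.29, edgeR adjusted p = 0.00461) or 2.93-fold, ranked 147th from the top. As with Pdgfc, the WT libraries differed more among themselves (2.71-fold) than the knockouts (1.26-fold), and WT replicate 3 was the highest of them. The log2 fold change was between 1.27 and 1.93 without any 1 library, with an edgeR adjusted p of at most 0.0246. With the fibre score as a covariate it was -1.61 (SE 0.67, edgeR adjusted p = 0.25).

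Met (Entrez gene 17295), the HGF receptor, had 20.5, 18.8 and 18.04 CPM in WT and 20.9, 22.3 and 23.6 CPM in GPR174-KO libraries. The highest WT library nearly reached the lowest knockout library. The log2 fold change was 0.22 (SE 0.07, edgeR adjusted p = 0.0417). The call held in 2 of the 6 fits that left out 1 library, those without WT replicate 1 or without GPR174-KO replicate 1. With the replicate number as a block, the edgeR adjusted p was 0.104, and by DESeq2's Wald test it was 0.118.

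Fgf1 (Entrez gene 14164), the FGF that binds all FGF receptors, had the largest fall. It had 20.9, 18.6 and 16.2 CPM in WT and 5.69, 5.65 and 6.70 CPM in GPR174-KO libraries. All WT values were above all knockout values by more than the range of either group. The mean fell from 18.6 ± 2.33 to 6.01 ± 0.59 CPM (SD, n = 3 each), a log2 fold change of -1.62 (SE 0.12, edgeR adjusted p = 0.000527) or 3.08-fold lower. Leaving out any 1 library gave log2 fold changes of -1.71 to -1.52, with an edgeR adjusted p of at most 0.00749. The fibre score as a covariate gave -0.81 (SE 0.36, edgeR adjusted p = 0.278).

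Fgf2 (Entrez gene 14173), a mitogen of satellite cells and endothelium, had 13.7, 11.4 and 11.97 CPM in WT and 9.46, 10.7 and 10.9 CPM in GPR174-KO libraries. All 3 knockout values were below all 3 WT values, but the difference did not pass the test (log2 fold change -0.25, SE 0.10, edgeR adjusted p = 0.0639). Under total counts the log2 fold change was 0.02 (SE 0.10, edgeR adjusted p = 0.852). The ratio of Fgf1 to Fgf2, compared after the values were seen, was taken in TPM, a unit scaled for transcript length. It was 2.10, 2.40 and 2.09 in the WT libraries and 0.926, 0.817 and 0.894 in the GPR174-KO libraries. Fgf1 was thus the more abundant mRNA of the pair in every WT library and the less abundant in every knockout library.

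The 10 members were ranked by level in TPM, which is scaled for transcript length. In WT muscle the order of mean TPM was Pdgfb (53.2 ± 1.95, SD, n = 3), Pdgfrb (46.5 ± 4.94), Pdgfa (27.2 ± 1.61), Pdgfra (21.7 ± 0.99), Fgf1 (8.02 ± 0.71), Pdgfd (6.51 ± 0.78), Pdgfc (5.41 ± 2.44), Met (5.0 ± 0.17), Fgf2 (3.67 ± 0.44) and Hgf (1.43 ± 0.72). The libraries of Pdgfd and Pdgfc overlapped, as did those of Pdgfc and Met, and all other neighbours were separate. In GPR174-KO muscle it was Pdgfrb (80.1 ± 0.66), Pdgfb (66.6 ± 1.56), Pdgfa (47.6 ± 0.61), Pdgfra (24.7 ± 2.07), Pdgfc (17.9 ± 0.50), Pdgfd (9.86 ± 0.13), Met (7.67 ± 0.71), Hgf (5.39 ± 0.86), Fgf2 (3.87 ± 0.50) and Fgf1 (3.40 ± 0.44), and here Fgf2 and Fgf1 were the neighbours that overlapped. Fgf1 moved from 5th to 10th in the order, Pdgfc from 7th to 5th, Hgf from 10th to 8th, and Pdgfb and Pdgfrb exchanged places. TPM has no correction for the share of reads that abundant genes take, and the means of 9 members were higher in TPM in the knockouts. TPM was therefore used for orders, shares and ratios within a library, and not for differences of a gene between groups.

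The make-up of the 4 PDGF ligand mRNAs, each as a share of their summed TPM in a library, does not depend on scaling between libraries. Pdgfb made up 55.5% to 59.8% of the sum in WT and 46.6% to 47.4% in GPR174-KO libraries. For Pdgfc the share was 3.70%, 5.51% and 8.06% in WT libraries and 12.4%, 12.9% and 12.6% in GPR174-KO libraries. Pdgfa took a slightly larger share in the knockouts (33.3% to 33.8%, against 29.1% to 30.0%), while the share of Pdgfd overlapped (6.55% to 7.30% in WT, 6.92% to 6.98% in GPR174-KO). The ligands of the alpha receptor, Pdgfa and Pdgfc, therefore each had a larger share of TPM in every knockout library than in any WT library, and Pdgfb a smaller one. For Pdgfa and Pdgfd, whose estimated splits over transcripts differed between the groups, the TPM shares also rest on those splits. In counts the Pdgfa shares overlapped, and that of WT replicate 1 was above that of every knockout library. WT replicate 1 had 784 Pdgfa, 1485 Pdgfb, 90 Pdgfc and 168 Pdgfd counts, and GPR174-KO replicate 3 had 1104, 1753, 490 and 284. The separation of the Pdgfa shares in TPM was thus not seen in counts. Relative to Pdgfra, the log2 difference of Pdgfa was 0.62 in TPM and 0.44 in counts.

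**Figure D2:**
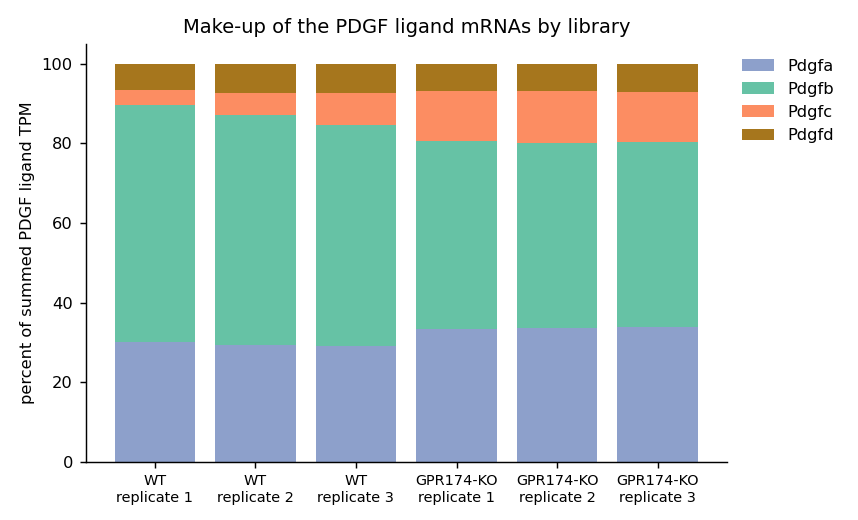
Stacked bars of Pdgfa, Pdgfb, Pdgfc and Pdgfd as percent of their summed TPM (vertical axis, linear, from 0), 1 bar per library. Pdgfb is the largest segment in all 6 libraries, and the Pdgfc segment is 3.70% to 8.06% of the bar in WT and 12.4% to 12.9% in GPR174-KO libraries.

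Ratios of a ligand to its main receptor within each library were compared for 5 pairs. Hgf to Met was 0.139, 0.289 and 0.435 in WT and 0.698, 0.645 and 0.760 in GPR174-KO libraries, a log2 difference of 1.43. Pdgfc to Pdgfra was 0.156, 0.226 and 0.360 in WT and 0.768, 0.770 and 0.648 in GPR174-KO libraries, a log2 difference of 1.64. In both pairs the receptor mRNA outweighed the ligand mRNA in every library, and by less in the knockouts. Pdgfa to Pdgfra had a geometric mean of 1.26 in WT and 1.93 in GPR174-KO muscles (log2 difference 0.62). Pdgfb to Pdgfrb was above 1 in WT (1.24, 1.14 and 1.07) and below 1 in GPR174-KO libraries (0.856, 0.831 and 0.809), a log2 difference of -0.47. Pdgfd to Pdgfrb had geometric means of 0.140 and 0.123 (log2 difference -0.19). The groups did not overlap for any of the 5 pairs, 3 higher and 2 lower in the knockouts. Each pair had a 2-sided exact permutation p of 0.1 (adjusted over the 5 pairs also 0.1). This is the smallest p that 3 libraries against 3 allow, so no pair could pass 0.05. Pdgfrb to Pdgfra, compared after the values were seen, was 2.04, 2.08 and 2.31 in WT and 3.43, 3.36 and 2.96 in GPR174-KO libraries.

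**Figure D3:**
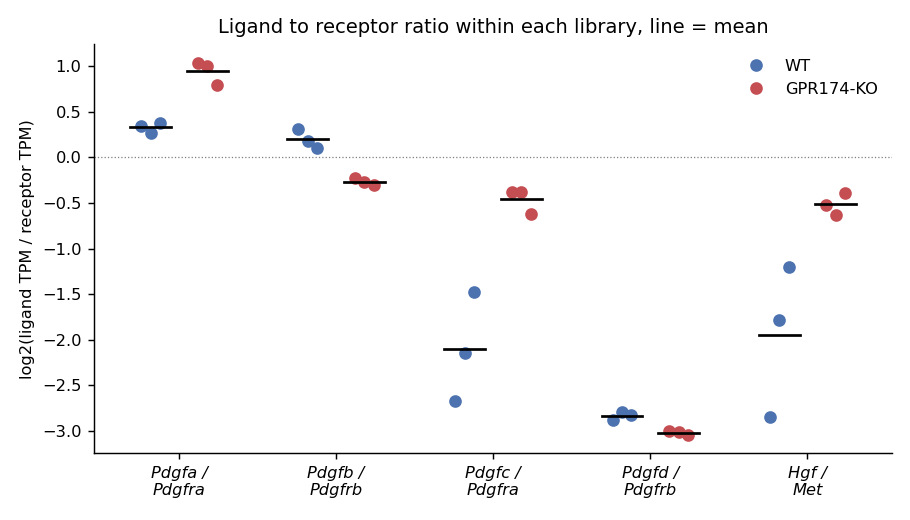
The log2 of ligand TPM over receptor TPM (vertical axis, 0 marks equal levels) for 5 pairs, 1 point per library, WT in blue and GPR174-KO in red, with the mean as a black line. Pdgfc to Pdgfra and Hgf to Met show the widest separation and the widest WT spread, and Pdgfb to Pdgfrb crosses from above 0 to below 0.

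The estimated counts were split over 2 to 7 RefSeq transcripts per gene. The split varied within groups for several members, so it is described and not tested. Hgf reads in WT were assigned mainly to a single transcript (56.3% to 92.4%, NM_001289461.1). A different transcript (NM_001289458.1) had 0 estimated counts in each WT library and 34.1, 75.0 and 77.7 in the GPR174-KO libraries. Those 3 values are a split of 120 to 155 reads per library among 5 transcripts. Pdgfa had a leading transcript with 44.5% to 58.8% of its counts in WT and 31.0% to 37.0% in GPR174-KO libraries (XM_030254199.1). The leading transcript of Pdgfd (NM_027924.3) had 0.0% to 42.6% in WT and 51.8% to 82.2% in GPR174-KO libraries. For Fgf1, XM_006525647.4 had 5.85% to 18.1% in WT and 20.0% to 36.8% in GPR174-KO libraries. TPM values of these genes, and the shares and ratios made from them, rest on these splits. Of the receptors, Pdgfra had a leading transcript (XM_006504262.4) with 23.3% to 52.3% in WT and 35.0% to 53.5% in GPR174-KO libraries, a spread within a group as wide as between groups. Fgf2 counts lay at 98.3% to 100% on a single transcript in all libraries, and Pdgfb counts at 70.6% to 80.5% on its leading one.

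The genes whose log2 CPM followed a receptor most closely over the 6 libraries, among 13636 tested genes of at least 1 CPM on average, are given as a description, since all 6 points share the difference between genotypes. For Pdgfrb they were Dazap1 (Pearson r = 0.9998), Bex3 (0.9996) and Copb2 (0.9995). Pdgfra was followed most closely by Per3 (0.9962), Gfod1 (0.9939) and Inpp5e (0.9928), and Met by Phax (0.9968), Pcdhb17 (0.9968) and Rnf169 (0.9966). None of these 9 genes is on the lists of pathway or cell type genes used here.

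Beyond the 10 members, 6 lists held 100 genes of the same pathways, of which 84 were tested. Of these, 49 passed, 35 higher and 14 lower in GPR174-KO muscles (58.3%, beside 54.6% of all tested genes, 27% higher and 27.6% lower). The counts of each list below stand beside the same shares of all tested genes. Under total counts, which move the median of all genes by 0.28, 54 were higher and 3 lower, so directions given here are relative to that median. Among 20 other FGF ligands, 9 were tested, 2 were higher and 2 lower, with a median log2 fold change of -0.12. Without WT replicate 2 only 1 was higher and 1 lower, where 37.5% of all tested genes were called. Fgf21, a hormone-like FGF that stressed muscle can release, had 0.44, 0.54 and 0.51 CPM in WT and 2.77, 2.40 and 1.68 CPM in GPR174-KO libraries (log2 fold change 2.19, SE 0.27, edgeR adjusted p = 0.00139). Fgf7, a fibroblast-made factor for epithelial cells, rose (log2 fold change 0.42, edgeR adjusted p = 0.0396), and Fgf18 fell (log2 fold change -0.55, edgeR adjusted p = 0.0149).

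Of the FGF receptors, coreceptors and carriers, 7 of 9 were tested, 3 were higher and 1 lower (median log2 fold change 0.21). Fgfr4, the FGF receptor of differentiating myoblasts, had 19.4, 19.8 and 22.3 CPM in WT and 37.5, 37.7 and 36.1 CPM in GPR174-KO libraries (log2 fold change 0.86, SE 0.07, edgeR adjusted p = 0.000611). Fgfr1, the main FGF receptor of satellite cells, had 159, 169 and 186 CPM in WT and 201, 199 and 202 CPM in GPR174-KO libraries (log2 fold change 0.23, edgeR adjusted p = 0.0264). Fgfr2 (log2 fold change -0.51, edgeR adjusted p = 0.061) and Fgfr3 (0.08, 0.718) did not pass, and both had means under 10 CPM. Klb, the coreceptor that FGF21 needs, rose from 1.16 to 1.90 CPM (log2 fold change 0.70, edgeR adjusted p = 0.0313). Fgfbp3, a carrier that releases FGFs from the matrix, fell (log2 fold change -0.61, edgeR adjusted p = 0.0291). The number of called genes on this list went from 4 to 1 without WT replicate 2, without GPR174-KO replicate 2 or without GPR174-KO replicate 3, and to 2 by DESeq2's Wald test. The share of all tested genes called in these fits, in the same order, was 37.5%, 38%, 46.5% and 42.4%, beside 54.6% in the reported fit.

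Heparan sulfate carriers and enzymes, which hold FGFs, HGF and PDGFs in the matrix and present them to receptors, had 20 of 21 tested, 11 higher and 1 lower (median log2 fold change 0.28). Hpse, the heparanase that cuts heparan sulfate chains, had 12.2, 16.2 and 22.8 CPM in WT and 30.5, 32.4 and 38.2 CPM in GPR174-KO libraries (log2 fold change 0.98, SE 0.21, edgeR adjusted p = 0.0081). Gpc2 rose (log2 fold change 0.92, edgeR adjusted p = 0.00201) and Gpc3 fell (log2 fold change -0.41, edgeR adjusted p = 0.00141), both glypicans, which carry heparan sulfate at the cell surface.

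Among proteases that process the ligands and their inhibitors, 13 of 15 were tested, 6 were higher and 3 lower (median log2 fold change 0.22). Spint1, an inhibitor of the HGF activator, rose from 0.70 to 1.65 CPM (log2 fold change 1.21, edgeR adjusted p = 0.0184). Hpn, which encodes hepsin, a membrane protease that activates HGF, fell (log2 fold change -1.31, edgeR adjusted p = 0.00297), as did Pcsk6, a proprotein convertase (log2 fold change -0.44, edgeR adjusted p = 0.0116).

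Receptor adaptors and effectors, all 16 tested, had 5 higher and 3 lower (median log2 fold change -0.02). With the replicate number as a block, 1 was higher and 2 lower, where 47.3% of all tested genes were called, beside 54.6% in the reported fit. When 1 library was left out, between 2 and 11 were called, 2 without WT replicate 2 or without GPR174-KO replicate 2, 4 without GPR174-KO replicate 1 or 3, and 5 without WT replicate 1. Of all tested genes, 37.5% to 62.8% were called in the fits that left out 1 library. Src (log2 fold change 0.59, edgeR adjusted p = 0.0234) and Stat3 (0.45, edgeR adjusted p = 0.00451) rose, and the adaptors Frs3 (-0.75, edgeR adjusted p = 0.00368) and Nck1 (-0.21, edgeR adjusted p = 0.0179) fell. Of 19 feedback regulators and responsive genes of the ERK cascade, 8 were higher and 4 lower (median log2 fold change 0.06). Between 6 and 12 were called when 1 library was left out, 6 without GPR174-KO replicate 2 and 7 without WT replicate 1, WT replicate 2 or GPR174-KO replicate 1. Ier3 (log2 fold change 1.26, edgeR adjusted p = 0.00119) and Dusp4 (0.86, edgeR adjusted p = 0.00178) rose, while Etv4 (-0.51, edgeR adjusted p = 0.0314) and Spry4 (-0.38, edgeR adjusted p = 0.0274) fell.

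Markers of the cell types that make or sense these factors also differed between the groups, and their part in the members' results was not tested. No marker on the lists was at 0 in all 6 libraries. The counts of markers called stand beside 54.6% of all tested genes called, 27% higher and 27.6% lower in GPR174-KO muscles. Fibro-adipogenic progenitor markers, the cells that carry Pdgfra, had 1 of 14 higher and 8 lower, with summed levels of 2797 to 3097 CPM in WT and 1993 to 2052 CPM in GPR174-KO libraries. Their most abundant genes Dcn (log2 fold change -0.57, edgeR adjusted p = 0.00147), Col15a1 (-0.80, edgeR adjusted p = 0.0021) and Gsn (-0.31, edgeR adjusted p = 0.0201) all fell. The list's median of -0.54 was lower than the value of -0.21 for Pdgfra.

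Pericyte and smooth muscle markers, the cells that carry Pdgfrb, were split, with 3 of 10 higher and 5 lower. Their sums overlapped (1197 to 1333 CPM in WT, 1304 to 1432 CPM in GPR174-KO). The list's median was -0.32, whereas the value for Pdgfrb was 0.40. Acta2, the smooth muscle actin that myofibroblasts also make, rose (log2 fold change 1.2, edgeR adjusted p = 0.00139), while the pericyte genes Rgs5 (-0.82, edgeR adjusted p = 0.00256) and Abcc9 (-0.69, edgeR adjusted p = 0.0109) fell. Endothelial markers, for a main source of Pdgfb, had 1 of 13 higher and 12 lower (median -0.79), with sums of 1325 to 1539 CPM in WT and 825 to 919 CPM in GPR174-KO libraries. Cdh5 (log2 fold change -0.82, edgeR adjusted p = 0.00122), Tie1 (-0.76, edgeR adjusted p = 0.00122) and Pecam1 (-0.63, edgeR adjusted p = 0.00137) fell, while Pdgfb did not pass the test.

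Macrophage markers, for cells that can make Hgf and Pdgfb, had 10 of 11 higher and none lower (median 0.77), from 1626 to 2539 CPM in WT to 3750 to 3832 CPM in GPR174-KO libraries. Lyz2 (log2 fold change 1.00, edgeR adjusted p = 0.00136), C1qb (0.70, edgeR adjusted p = 0.0172) and C1qa (0.69, edgeR adjusted p = 0.0369) rose. The WT library with the highest level of each was replicate 3. This was not particular to macrophage markers, since it held for Hgf, Pdgfc, Pdgfd and Pdgfrb and for Acta2 and Myod1 of other lists. Of the platelet markers, a store of PDGF protein, 4 of 8 were tested, 1 higher and 1 lower. Sums were 20.3 to 27.1 CPM in WT and 42.4 to 43.8 CPM in GPR174-KO libraries. Within them Pf4 rose from 13.4 to 35.2 CPM (log2 fold change 1.38, edgeR adjusted p = 0.00193). Gp1ba fell from 5.68 to 3.31 CPM (-0.77, edgeR adjusted p = 0.0282) and Itga2b did not pass (-0.17, edgeR adjusted p = 0.41). The higher sum in the knockouts thus rests mainly on Pf4.

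Satellite cell and myoblast markers, the cells that carry Met, had 5 of 9 higher and 2 lower (median 0.51), from 377 to 431 CPM in WT to 517 to 536 CPM in GPR174-KO libraries. Myod1 (log2 fold change 0.54, edgeR adjusted p = 0.00139) and Heyl (0.51, edgeR adjusted p = 0.00287) rose, and Itga7 did not pass (0.11, edgeR adjusted p = 0.192). All 16 mature fibre markers fell (median -1.44), among them Acta1 (log2 fold change -1.15, edgeR adjusted p = 0.00162), Myh4 (-1.49, edgeR adjusted p = 0.0149) and Atp2a1 (-1.44, edgeR adjusted p = 0.00241). The value of -1.62 for Fgf1 lay within the range of this list. Regenerating fibre markers had 7 of 10 higher and none lower (median 1.07), with overlapping sums (6991 to 9246 CPM in WT, 8567 to 10587 CPM in GPR174-KO). Their 3 most abundant genes Actc1 (log2 fold change -0.28, edgeR adjusted p = 0.144), Myh8 (0.20, edgeR adjusted p = 0.412) and Myh3 (0.85, edgeR adjusted p = 0.124) did not pass.

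**Figure D4:**
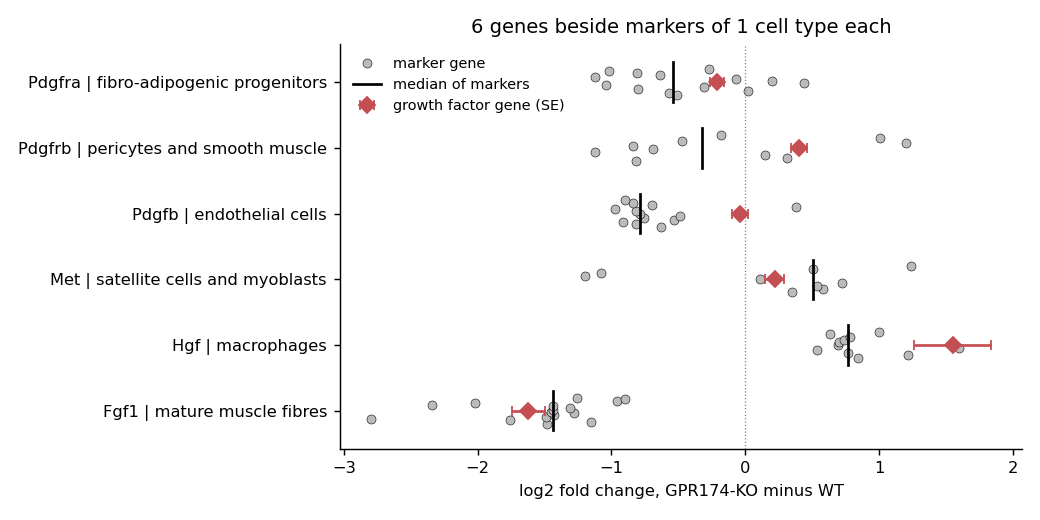
Log2 fold change of GPR174-KO over WT (horizontal axis) for 6 members (red diamonds with SE), each beside the markers of a cell type that makes or carries it (grey points, with their median as a black line). Pdgfra and Pdgfb sit to the right of the median of their lists (-0.21 against -0.54, and -0.04 against -0.79), Hgf sits to the right of the macrophage median (1.55 against 0.77), and Fgf1 lies among the mature fibre markers. Pdgfrb sits to the right of its list's median (0.40 against -0.32) and Met to the left (0.22 against 0.51).

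**Figure D5:**
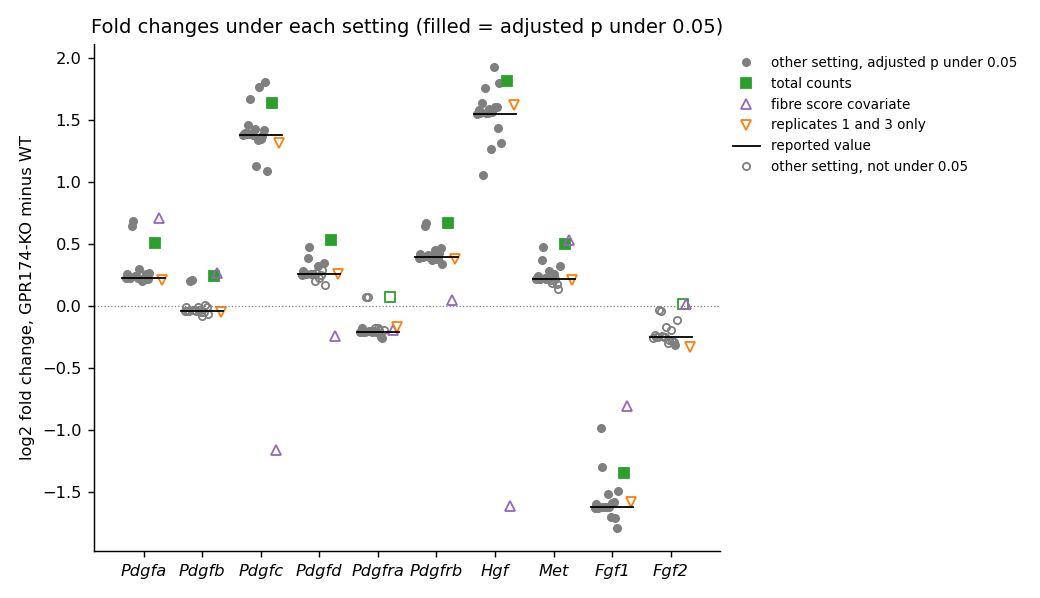
Log2 fold change of GPR174-KO over WT (vertical axis) of each member under the reported fit (black line) and 20 other settings, filled where the adjusted p was under 0.05. Pdgfc, Pdgfrb, Hgf and Fgf1 are filled in 18 of the 20, all but the fibre score covariate (triangles pointing up), which also puts Pdgfc at -1.16 and Hgf at -1.61, and replicates 1 and 3 alone (triangles pointing down).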

How the data were processed

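Total RNA from ischemic gastrocnemius of 3 GPR174-KO and 3 WT mice was sequenced on a BGISEQ instrument according to the methods, whereas the labels name an Illumina TruSeq kit. For 58843 RefSeq transcripts the authors deposited expected counts (estimated reads, not normalized), and the deposited FPKM and TPM are scaled for transcript length and library size. The submitters' processing notes name HISAT2 2.0.4, Bowtie2 2.2.5, RSEM 1.2.12 and GRCm39, and strand use is not given in the sources used here. No per-sample column was left unused (0), and group means were not used.

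Expected counts were summed per Entrez gene and rounded (18089 genes, 18037 with a symbol). Genes were compared with edgeR 4.0.16 in R 4.3.3 (TMM scaling, filterByExpr, robust quasi-likelihood F-test, Benjamini-Hochberg adjustment over 14395 genes), in place of the study's DEGseq test, with thresholds as in the study (0.05, and 1 for the size of the log2 fold change). Ratios used TPM and a 2-sided exact permutation test. The methods give 3 mice per group, and nothing pairs same-numbered mice. The correlations of deviations between same-numbered libraries were 0.016, -0.028 and -0.008, so no block was used.

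The members and lists were chosen with earlier results of these data known. Named are all members, up to 2 called genes per direction and pathway list (mean of at least 1 CPM), the 4 Fgfr genes, the 3 most abundant markers of each cell type, the 3 genes most like each receptor, and Gpr174. Of the genes this rule names, 1 is not reported here. The Fgf1 to Fgf2 and Pdgfrb to Pdgfra ratios were picked once their values were known.

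As alternatives, scaling by upper quartiles, total counts or the size factors of DESeq2 1.42.0 was tried, with DESeq2's Wald test, limma 3.58.1 (voom, and log2 of FPKM plus 1 or 0.1 for genes of at least 1 FPKM in 3 libraries), no low-count filter or a minimum of 10 counts per library, a replicate block, a fibre score covariate (the mean log2 CPM, prior count 2, of the mature fibre list after centring each gene), leaving out each library, replicates 1 and 3 alone and, added after seeing the data, replicates 1 and 2 or 2 and 3 alone. For ratios, FPKM and counts replaced TPM. Tests were tested on simulated data. Python 3.11.15, numpy 2.4.6, pandas 2.3.3, scipy 1.17.1 and matplotlib 3.10.9 made the tables and figures. Counting errors cover counting only. Coordinates are printed for promoter windows alone, on GRCm38.p6, which is not the build of the files.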

Additional observations from a re-analysis of the deposited data

How the results depend on the processing

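Of the members' log2 fold changes under 20 alternatives, 151 kept their direction and side of the threshold, 35 kept direction only, 1 newly passed and 13 reversed. The 8 members called became 0 with the fibre score as a covariate (2 at an unadjusted p under 0.05, edgeR, where the share of all genes called went from 54.6% to 3.49%) and 0 with replicates 1 and 3 alone (4 unadjusted, with 0.0542 the smallest edgeR adjusted p of any gene), and between 4 and 7 when 1 library was left out (4 without WT replicate 2 or GPR174-KO replicate 2, 5 without GPR174-KO replicate 1, beside 37.5% to 62.8% of all genes). The 3 members past both thresholds likewise became 0 in those first 2 settings. With the replicate block 6 members were called, Pdgfd and Met being lost, and no other member's call changed. The fibre score reversed Pdgfb (0.27), Pdgfc (-1.16), Pdgfd (-0.24), Hgf (-1.61) and Fgf2 (0.02). The score did not overlap between the genotypes, so this fit cannot tell score and genotype apart. Total counts reversed Pdgfb (0.24), Pdgfra (0.07) and Fgf2 (0.02), and turned the share of higher genes among all those past both thresholds from 41.6% to 76.4%. Limma on FPKM reversed Pdgfb (0.20 with a pseudocount of 1, 0.21 with 0.1) and Pdgfra (0.07 with either). Leaving out 1 library put Pdgfb between -0.08 and 0.01 (without GPR174-KO replicate 3). The cause of these reversals was not tested. The 49 pathway genes called ranged from 29 to 59 when 1 library was left out (29 without WT replicate 2, 30 without GPR174-KO replicate 2), beside 37.5% to 62.8% of all genes. The 5 ratios kept their non-overlap in every setting tried. Hgf in WT, at 18 to 54 counts, is the value most limited by depth.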
